A study of Danio rerio with 6 samples.

Results

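The ligands and receptors of 7 developmental signalling systems (Notch, BMP, TGF-β, FGF, Wnt, Hedgehog and the guidance families of semaphorins and ephrins) were read out in *vhl* mutant and wild-type zebrafish embryos. Members were all zebrafish probes whose gene symbol starts with one of 15 family prefixes (*wnt*, *fzd*, *fgf*, *bmp*, *gdf*, *tgfb*, *notch*, *jag*, *shh*, *ihh*, *ptch*, *eph*, *efn*, *sema* and *robo*). This rule found 33 probes of 32 genes among the 41031 zebrafish probes of the array. It could only find probes that carry a name. A name came from a RefSeq accession for 24 of the 33 probes, from the study's full probe list for 6 and only from its list of changed genes for 3. The RefSeq table holds 226 genes of these families, so most of them were not read here, and no *gdf*, *jag* or *robo* gene had a named probe.

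The tested embryos were *vhl* mutants, which the study describes as homozygous for the *hu2117* allele. They lack the von Hippel-Lindau protein, which marks the α subunit of Hypoxia Inducible Factor (HIF) for destruction. The comparison asks how transcript levels differ between these mutants, in which the hypoxic response is active without low oxygen, and wild-type. The study also raises lost HIF-independent functions of the protein and indirect effects in the whole animal as possible sources of change. Both groups were a mix of the TL and LWT strains, raised at 28 °C with no other treatment and collected at 4 days post fertilisation (dpf). Each array held labelled RNA from a pool of 30 whole embryos, with 3 arrays of *vhl* mutants (replicates 1, 3 and 4) and 3 of wild-type (replicates 2, 3 and 4). The study also describes *vhl* fish that carry a *phd3:gfp* reporter of HIF activity, and the sources used here do not say whether the embryos on the arrays carried it. In RNA of whole embryos, a change in the number of cells of a type cannot be told apart from a change in RNA per cell.

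As background, these systems carry signals between neighbouring cells. A Notch receptor is cut when a ligand on the next cell binds it, and its intracellular part then enters the nucleus. BMP and TGF-β ligands bind paired type I and type II receptor kinases, which phosphorylate Smad proteins. FGFs act through receptor tyrosine kinases, Wnts through Frizzled receptors and Hedgehog proteins by relieving the block that Patched puts on Smoothened. Semaphorins and ephrins steer growing axons and vessels through plexins and Eph receptors. In the fish embryo the same systems pattern the body axis, fins, vessels and nervous system.

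*wnt5a* is the only member for which a sequence was at hand. The study used it as a reference gene for quantitative PCR, and its primer pair is shown because the array probe of this gene gave no usable level. Both primers are written 5′ to 3′.
wnt5a forward: gttcggccgcgtcatg
wnt5a reverse: tcgactcacagcattcacaaca

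Between 67.2% and 72.4% of zebrafish spots were well above background on each array, and 0 spots were saturated. Pearson's r over all probes was 0.979 to 0.989 among *vhl* mutant arrays, 0.993 to 0.995 among wild-type arrays and 0.961 to 0.972 across the groups. Each of the 2 slides, and each of the 2 scans, held 1 group, so slide, scan and genotype cannot be told apart in any difference given here. No named probe read *vhl* itself. The HIF target *egln3*, a prolyl hydroxylase gene, had log2 intensities of 16.02, 15.70 and 15.33 in *vhl* mutants, against 8.98, 8.80 and 8.95 in wild-type. The *egln3* probe was named only through the study's list of changed genes, so it is no independent check of the groups. Among marker genes of other tissues, the mean log2 level of 12 photoreceptor probes was 12.47 to 12.76 in *vhl* mutants, against 13.66 to 13.89 in wild-type, with 8 called lower and 11 lower at an adjusted p of 0.05. For 5 neuronal probes it was 11.70 to 11.90 against 11.96 to 12.01 (0 called, 3 lower at 0.05), and for 3 muscle probes 17.17 to 17.33 against 17.26 to 17.29 (0 called, 1 lower at 0.05). For 3 cartilage and bone probes it was 9.24 to 9.72 against 9.55 to 9.72 (0 past 0.05). The 4 endothelial probes averaged 9.50 to 10.02 against 8.79 to 8.87 (2 called higher, 3 higher at 0.05), and the 2 erythroid probes 13.61 to 14.48 against 11.26 to 11.62 (both called higher). The 8 liver probes averaged 13.77 to 14.04 against 12.90 to 13.17 (3 called higher, and 2 lower at 0.05). Some of these probes owe their name only to the study's list of changed genes (5 photoreceptor, 2 endothelial, 1 erythroid and 4 liver). Without them 3 of 7 photoreceptor probes were called lower, 0 of 2 endothelial probes were called (1 higher at 0.05) and the 1 erythroid probe was called higher. The mean of the other 4 liver probes was then lower in *vhl* mutants, at 13.51 to 13.82 against 13.83 to 14.06 in wild-type (0 called, 1 lower at 0.05). The part of these shifts in the results below was not tested.

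Levels are given as normalised log2 intensity, in replicate order within each group, and can be compared between groups for one probe but not between probes. Fold changes divide *vhl* mutant by wild-type and carry the standard error (SE) of limma's fit over all probes. Benjamini-Hochberg adjustment of p took in the whole array of 41031 probes. A probe was called where the adjusted p was at most 0.01 and the change at least 2-fold. The replicates are separate pools of embryos.

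Among the members, 5 of 33 probes (15.2%) were called, and all 5 were higher in *vhl* mutants: *sema6ca*, *notch1a*, *fgf12b*, *notch3* and *bmp5*. Over all probes 3.22% were called, 1.67% higher and 1.55% lower. These shares are not on an equal footing, because all 5 stand in the study's own list of changed genes, which was drawn from these arrays and supplied some of the names. With the 3 probes set aside that this list alone named, 3 of 30 (10%) were called. Of the 24 probes named through RefSeq, 2 (8.33%) were called, *notch3* and *sema6ca*, against 4.97% of all RefSeq-named probes. On RefSeq names alone the members' share was thus near the background, and the calls are described gene by gene.

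With the limit set at an adjusted p of 0.05 and no limit on fold, 14 of 33 member probes (42.4%) passed, 9 higher and 5 lower, against 24.4% of all probes (11.7% higher and 12.7% lower). Among RefSeq-named members 33.3% passed, against 30.3% of all RefSeq-named probes. The median log2 fold change of the members was 0.03, and that of all probes was -1.74e-04. The 3 mutant arrays did not overlap the 3 wild-type arrays for 17 members (51.5%, 11 higher and 6 lower), against 43.8% of all probes (21.4% higher and 22.4% lower). For RefSeq-named members this share was 41.7%, against 49.7% of RefSeq-named probes.

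**Figure D1:**
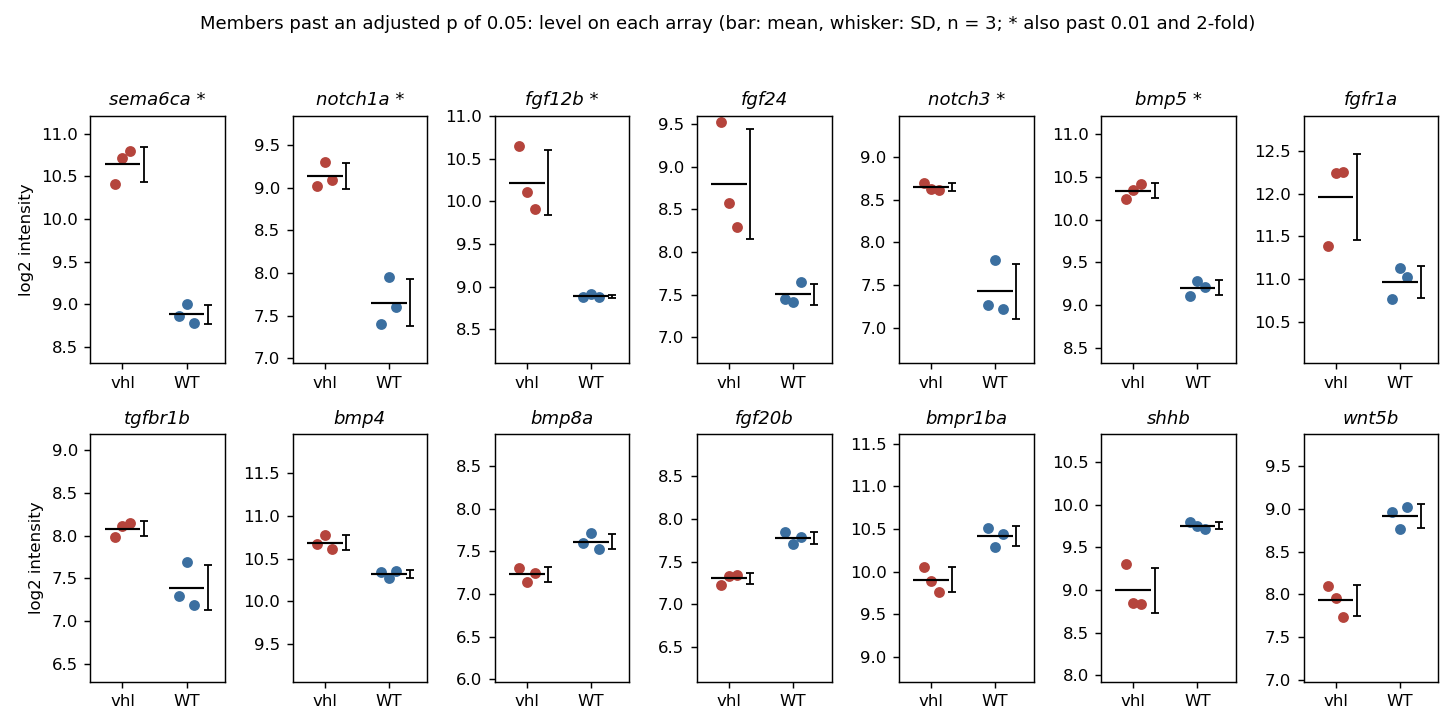
Normalised log2 intensity on each array for the 14 members past an adjusted p of 0.05, *vhl* mutants at left and wild-type at right in each panel, with the mean as a bar and the SD as a whisker (n = 3 arrays per group). Every panel spans the same number of log2 units, and in all 14 the groups do not overlap.

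By role, the 5 calls were spread over receptors (*notch1a* and *notch3*, 2 of 11 probes), secreted ligands (*bmp5*, 1 of 16), membrane-bound ligands (*sema6ca*, 1 of 4) and *fgf12b*, whose product stays inside the cell. Over all probes 3.22% were called, and 4.97% of RefSeq-named probes. All 5 called members stand in the study's list of changed genes. At an adjusted p of 0.05, receptors counted 4 higher and 1 lower (45.5%), and secreted ligands 3 higher and 4 lower (43.8%). Over all probes 24.4% passed, 11.7% higher and 12.7% lower. The study's list of changed genes held 2 of these receptors and 2 of these ligands. The plot of fold changes by pathway shows that Notch, BMP, FGF and guidance members each held at least 1 called probe, and the TGF-β, Wnt and Hedgehog members none.

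**Figure D2:**
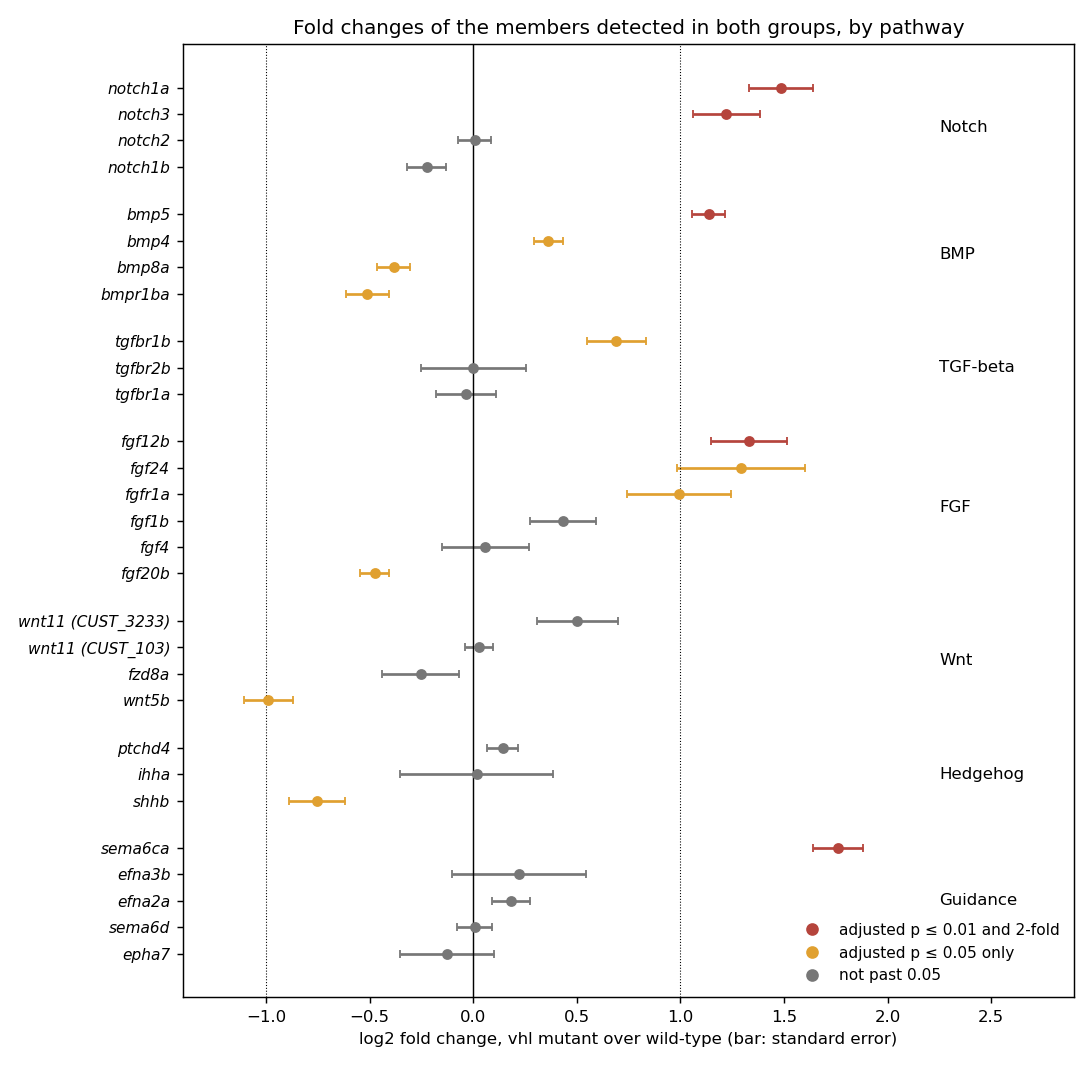
Log2 fold change (*vhl* mutant over wild-type) with its standard error for the members detected in both groups, grouped by pathway. Dotted lines mark a 2-fold change, red points were called, orange points passed an adjusted p of 0.05 only, and *sema6ca* has the highest value (1.76) and *wnt5b* the lowest (-0.99).

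Of the 4 Notch receptors, 2 were called, against 3.22% of all probes, and both stand in the list of changed genes. *notch1a* and *notch3* were higher in *vhl* mutants by 2.80-fold and 2.33-fold, while *notch1b* and *notch2*, close relatives with the same receptor role, did not pass the test. *notch1a*, which acts in neurogenesis, somite formation and arterial specification in zebrafish, had log2 intensities of 9.02, 9.30 and 9.09 in *vhl* mutants, against 7.40, 7.95 and 7.60 in wild-type. Its log2 fold change was 1.49 (SE 0.16, limma adjusted p = 0.00223). The lowest mutant pool lay more than 1 log2 unit above the highest wild-type pool, and both spots of the probe differed by at most 0.0743 on any array.

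*notch3*, a receptor of mural cells and of neural progenitors, had 8.70, 8.63 and 8.62 in *vhl* mutants, against 7.26, 7.80 and 7.21 in wild-type. The log2 fold change was 1.22 (SE 0.16, limma adjusted p = 0.00418). The mutant pools were close together, with an SD of 0.0434, and the wild-type pools were not, with an SD of 0.325, since wild-type replicate 3 was the high one. *notch2* read 10.59, 10.64 and 10.52 in *vhl* mutants, against 10.48, 10.55 and 10.69 in wild-type, a log2 fold change of 0.01 (SE 0.08). *notch1b* was dim, with 6.56, 6.74 and 6.68 in *vhl* mutants (well above background on 1 of 3 arrays) against 7.04, 6.82 and 6.79 in wild-type (3 of 3). Its groups did not overlap, but its log2 fold change of -0.22 (SE 0.09) did not pass limma's test (adjusted p = 0.141).

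Within each array, the log2 ratio of *notch3* to *notch2* was -2.01 to -1.89 in *vhl* mutants, against -3.47 to -2.75 in wild-type, a difference of 1.21, and the groups' ratios did not overlap. This ratio, and those of *sema6ca* to *sema6d* and of *tgfbr1b* to *tgfbr1a*, were taken after the changes of these genes had been seen, so they describe the arrays and carry no test. None is given for *notch1a* over *notch1b*, since *notch1b* was near background in *vhl* mutants.

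**Figure D3:**
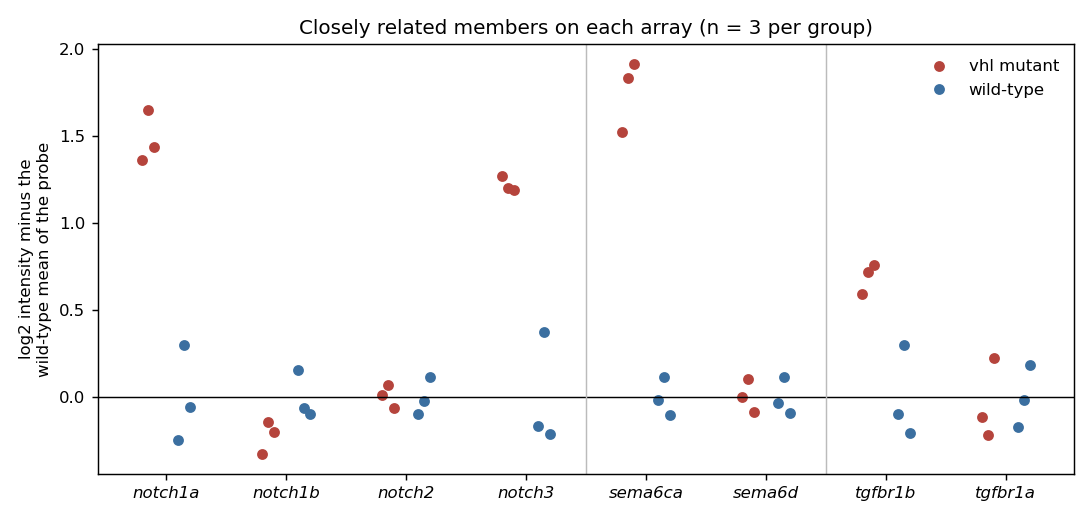
Log2 intensity of each array minus the wild-type mean of the same probe for the 4 Notch receptors, 2 class 6 semaphorins and 2 TGF-β type I receptors, *vhl* mutants in red at left of each gene and wild-type in blue (n = 3 arrays per group). Mutant arrays stand clear of wild-type arrays for *notch1a*, *notch3*, *sema6ca* and *tgfbr1b*, and lie among or just under them for *notch1b*, *notch2*, *sema6d* and *tgfbr1a*.

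Of 43 other Notch pathway symbols, 4 had a named probe, of which 3 were lower at an adjusted p of 0.05, 1 of them called. Over all probes 12.7% were lower at 0.05 and 1.55% were called lower. *her2*, a Hes-related repressor, was lower in *vhl* mutants (8.86, 9.24 and 9.25, against 10.71, 10.69 and 10.59 in wild-type), with a log2 fold change of -1.54 (SE 0.12, limma adjusted p = 0.00119), and its name came only from the list of changed genes. Without wild-type replicate 3 it just missed the call (adjusted p = 0.0105). *hes6*, another bHLH gene of this group, had a log2 fold change of -0.81 (limma adjusted p = 0.0206), and 0.0608 to 0.0784 without *vhl* mutant replicate 4 or wild-type replicate 3 or 4. *mib1*, the ubiquitin ligase that lets Notch ligands be endocytosed, had -0.47 (adjusted p = 0.00853). *her4.4*, a Notch target in zebrafish, had 0.05 (SE 0.13). No Notch ligand had a named probe.

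With 1 array left out, calls changed over the whole array. The called share of all probes was 3.22% with all arrays. It was 1.52%, 0.948% and 1.17% without wild-type replicates 2, 3 and 4. Without *vhl* mutant replicates 1, 3 and 4 it was 5.29%, 2.12% and 2.24%. The call of *notch1a* was lost when wild-type replicate 4 was left out (limma adjusted p = 0.0151, log2 fold change 1.46). That of *notch3* was lost without *vhl* mutant replicate 3 or 4 (0.0164 and 0.0152) and without wild-type replicate 2 or 4 (0.0207 and 0.0200), with a log2 fold change of 1.12 to 1.24 in these 4 fits. The sizes also depended on the signal used. Feature Extraction's processed signal gave log2 fold changes of 2.38 for *notch1a* and 2.18 for *notch3* (5.20-fold and 4.55-fold), with the median of all probes moved to 0.33, and the deposited series table gave 2.23 and 1.99 (4.69-fold and 3.97-fold), where *notch3* was not called (limma adjusted p = 0.0120).

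All 4 BMP members passed an adjusted p of 0.05, against 24.4% of all probes, and they moved in both directions. *bmp5*, a secreted BMP known in mammals for its part in skeletal shape, had 10.24, 10.35 and 10.42 in *vhl* mutants, against 9.11, 9.28 and 9.21 in wild-type. It was 2.20-fold higher in *vhl* mutants (log2 1.14, SE 0.08, limma adjusted p = 9.30e-04). The pools of each group lay close together, with an SD of 0.0867 among *vhl* mutants and 0.0859 among wild-type pools. The call held whichever array was left out, although *bmp5* was one of the probes named only through the list of changed genes.

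The change in *bmp4*, a ventralising ligand in the early fish embryo that is later used in heart and fin, was small. It read 10.67, 10.78 and 10.61 in *vhl* mutants, against 10.35, 10.27 and 10.35 in wild-type, a log2 fold change of 0.36 (SE 0.07, limma adjusted p = 0.0146). *bmp8a*, another ligand, was lower in *vhl* mutants with 7.30, 7.14 and 7.24, against 7.60, 7.71 and 7.53 in wild-type (log2 -0.38, SE 0.08, adjusted p = 0.0173). The type I receptor *bmpr1ba* was also lower, with 10.06, 9.89 and 9.77 in *vhl* mutants, against 10.51, 10.29 and 10.44 in wild-type (log2 -0.51, SE 0.10, adjusted p = 0.0157). Its 3 mutant pools all lay under the 3 wild-type pools.

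Leaving out 1 array raised the adjusted p of several of these small changes above 0.05. In such fits 13.8% to 17.6% of all probes passed 0.05, against 24.4% with all arrays. The exception was the fit without *vhl* mutant replicate 1 (31.8%). The limma adjusted p was 0.0585 for *bmp4* without wild-type replicate 3, and 0.0545, 0.0546 and 0.0612 for *bmp8a* without *vhl* mutant replicate 3 and wild-type replicates 2 and 3. For *bmpr1ba* it was 0.0502, 0.0576 and 0.0612 without *vhl* mutant replicate 3 and wild-type replicates 2 and 4. Over 18 alternatives (settings of the processing or 1 array left out), *bmp4* passed 0.05 in 13, *bmp8a* in 12 and *bmpr1ba* in 14. *bmp4* also missed 0.05 with the processed signal, the series table, the replicate number as a block and upper-quartile scaling after background correction. Of all probes, 33.9%, 24.9%, 22.3% and 0.668% passed 0.05 in these settings. Over the 18 alternatives, the log2 fold change of *bmp4* was 0.27 to 0.40. The log2 fold change of *bmp8a* was 0.26, the other sign, when arrays were scaled to their upper quartile after background correction, a setting that moved the median of all probes by 0.71.

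Among TGF-β receptors, 1 of 3 passed an adjusted p of 0.05, against 24.4% of all probes. *tgfbr1b*, a type I receptor, had 7.98, 8.11 and 8.15 in *vhl* mutants, against 7.30, 7.69 and 7.19 in wild-type, a log2 fold change of 0.69 (SE 0.14, limma adjusted p = 0.0168). Its paralogue *tgfbr1a* read 8.28, 8.18 and 8.62 in *vhl* mutants, against 8.22, 8.38 and 8.58 in wild-type (log2 -0.04, SE 0.15), and the groups overlapped. The type II receptor *tgfbr2b* ranged from 10.60 to 11.46 in *vhl* mutants, against 10.92 to 11.40 in wild-type (log2 0.00, SE 0.25). The log2 ratio of *tgfbr1b* to *tgfbr1a* was higher in *vhl* mutants by 0.73. *tgfbr1b* missed 0.05 without *vhl* mutant replicate 3 or 4 (limma adjusted p = 0.0529 and 0.0526) and without wild-type replicate 2 or 4 (0.0633 and 0.0551).

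Of 14 other genes of the BMP and TGF-β pathways with a probe, from a list of 55 symbols, 0 were called and 2 passed an adjusted p of 0.05. Over all probes 3.22% were called and 24.4% passed 0.05. *smad7*, an inhibitory Smad, was higher, with 10.20, 10.34 and 10.35 in *vhl* mutants, against 9.81, 9.72 and 9.68 in wild-type (log2 0.56, SE 0.07, limma adjusted p = 0.00429). *mstnb*, one of the zebrafish myostatin genes and itself a TGF-β family ligand, was lower (log2 -0.73, SE 0.13, adjusted p = 0.0117, and 0.0501 without wild-type replicate 3). The signal-carrying Smads *smad2*, *smad3a* and *smad5* had log2 fold changes of 0.02, 0.25 and -0.00, and *id3*, a BMP target, had 0.13, none past the test.

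Of the 8 FGF members, 3 were higher and 1 was lower at an adjusted p of 0.05, and 2 were not detected. Over all probes 11.7% were higher and 12.7% lower at 0.05. *fgf12b* was 2.52-fold higher in *vhl* mutants. It belongs to the FGF homologous factors, which remain in the cell and bind voltage-gated sodium channels. Its log2 intensities were 10.64, 10.10 and 9.91 in *vhl* mutants, against 8.88, 8.91 and 8.87 in wild-type (log2 1.33, SE 0.18, limma adjusted p = 0.00483). The wild-type pools were almost equal, with an SD of 0.0173, and the mutant pools spread over 0.380 (SD). This probe too was named only through the list of changed genes, and the call was lost without *vhl* mutant replicate 3 (0.0155) and without wild-type replicate 2, 3 or 4 (0.0242, 0.0261 and 0.0260).

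*fgf24*, which the zebrafish pectoral fin bud needs, showed a change of similar size but a wider spread. It read 9.52, 8.57 and 8.29 in *vhl* mutants, against 7.45, 7.41 and 7.64 in wild-type, 2.45-fold higher (log2 1.29, SE 0.31, limma adjusted p = 0.0283). *vhl* mutant replicate 1 was the high pool, as it was for *fgf12b*, and without it the log2 fold change of *fgf24* was 0.93 (adjusted p = 0.00329). The adjusted p rose past 0.05 without *vhl* mutant replicate 3 (0.0545) and without wild-type replicate 2, 3 or 4 (0.0892, 0.0979 and 0.0777). The log2 fold change was 2.26 with the processed signal and 2.07 with the series table.

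The receptor *fgfr1a* was 1.99-fold higher in *vhl* mutants, just under the fold limit. It had 11.39, 12.24 and 12.26 in *vhl* mutants, against 10.76, 11.13 and 11.02 in wild-type (log2 0.99, SE 0.25, limma adjusted p = 0.0344). Here *vhl* mutant replicate 1 was the low pool, and on wild-type replicate 3 only 1 of the 2 spots was used, the other being an outlier. Without that pool the log2 fold change was 1.28 (adjusted p = 0.00141), and with any of the other 5 arrays left out the adjusted p was 0.0822 to 0.110.

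*fgf20b*, a secreted ligand of the FGF9 group, was lower in *vhl* mutants with 7.23, 7.34 and 7.35, against 7.84, 7.71 and 7.79 in wild-type (log2 -0.47, SE 0.07, limma adjusted p = 0.00590). It passed 0.01 without the fold limit, and it passed 0.05 whichever array was left out. Under upper-quartile scaling after background correction its sign turned, to 0.10. *fgf1b*, the acidic FGF, had 8.62, 8.34 and 7.97 in *vhl* mutants, against 7.87, 7.87 and 7.89 in wild-type. Its groups did not overlap, but the log2 fold change of 0.43 (SE 0.16) did not pass (adjusted p = 0.0996). *fgf4* had log2 intensities of 8.63 to 9.45 in *vhl* mutants, against 8.77 to 9.05 in wild-type (log2 0.06, SE 0.21). *fgf6a*, and *fgf8a* of the midbrain-hindbrain organiser, were well above background on 0 of 3 arrays in each group and are given no fold change.

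Of 24 further FGF pathway symbols, 4 genes were measured and 1 was called, against 3.22% of all probes. *spry4*, an inhibitor of receptor tyrosine kinase signalling that FGF induces, had 10.39, 11.00 and 10.76 in *vhl* mutants, against 9.14, 9.23 and 9.06 in wild-type, 2.98-fold higher (log2 1.57, SE 0.16, limma adjusted p = 0.00199). It too was named only through the list of changed genes, and its adjusted p was 0.0124, 0.0134 and 0.0138 without wild-type replicates 2, 3 and 4. *etv5a*, an ETS factor and another FGF target, did not pass the test. It averaged 11.94 ± 0.07 in *vhl* mutants and 12.15 ± 0.12 in wild-type (SD, n = 3 each), with a log2 fold change of -0.22 (SE 0.09, adjusted p = 0.120).

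Of the 5 Wnt probes 0 were called, against 3.22% of all probes, although 1 came close. *wnt5b*, the *pipetail* gene, whose Wnt acts mainly outside the β-catenin branch in convergence and extension and in cartilage, had 8.10, 7.95 and 7.74 in *vhl* mutants, against 8.97, 8.76 and 9.03 in wild-type. Its log2 fold change was -0.99 (SE 0.12, limma adjusted p = 0.00326), 1.98-fold lower in *vhl* mutants and so just short of the fold limit. It was called under 7 of 18 alternatives and stood in the list of changed genes, from which alone its name came.

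2 probes carried the symbol *wnt11*. The one named through RefSeq read 12.06, 11.48 and 11.83 in *vhl* mutants, against 11.16, 11.09 and 11.60 in wild-type, a log2 fold change of 0.50 (SE 0.20, limma adjusted p = 0.114), and the groups overlapped. The other, named by the study's list, had 7.27, 7.15 and 7.26 in *vhl* mutants, against 7.15, 7.25 and 7.18 in wild-type (log2 0.03, SE 0.07). The symbol is also an older name of *wnt11f2*, so it is not settled which gene that second probe reads. The Frizzled receptor *fzd8a* ranged from 9.90 to 10.58 in *vhl* mutants, against 10.27 to 10.59 in wild-type (log2 -0.25, SE 0.19). *wnt5a* was well above background on 0 of 3 arrays in each group, with 6.61 ± 0.05 in *vhl* mutants and 6.68 ± 0.04 in wild-type (SD, n = 3 each), so these arrays do not show whether the level of this reference gene differed.

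Of 56 other Wnt pathway symbols, 10 genes had a probe. In *vhl* mutants 2 were called lower and 4 were lower at an adjusted p of 0.05, with 0 higher. Over all probes 1.55% were called lower and 12.7% were lower at 0.05. The 4 lower genes were 3 secreted antagonists and *rspo1*. *sfrp1a*, a secreted Frizzled-related protein gene, ranged from 7.87 to 8.44 in *vhl* mutants, against 9.29 to 9.37 in wild-type (log2 -1.21, SE 0.15, limma adjusted p = 0.00337), and was named only through the list of changed genes. Its adjusted p was 0.0143 without *vhl* mutant replicate 3 and 0.0190, 0.0201 and 0.0194 without wild-type replicates 2, 3 and 4. *frzb*, of the same class and named through RefSeq, had 8.90, 8.92 and 8.77 in *vhl* mutants, against 9.88, 9.98 and 9.82 in wild-type (log2 -1.03, SE 0.08, adjusted p = 0.00101), just under 2-fold without *vhl* mutant replicate 4 or wild-type replicate 3 (log2 -0.99 each). The paralogue *sfrp1b* (log2 -0.48, adjusted p = 0.00724) and *rspo1* (log2 -0.51, adjusted p = 0.00872), which raises Wnt signalling, were lower to a smaller extent. *dkk2*, another secreted modulator, had a log2 fold change of 0.37 (SE 0.29), which was 0.02 without *vhl* mutant replicate 1, the high pool. The intracellular genes *apc*, *axin1*, *gsk3ab* and *tcf7l1a* lay between -0.13 and 0.17. *porcn*, the remaining gene of the list, had -0.29 (SE 0.11, limma adjusted p = 0.106), lower in *vhl* mutants with groups that did not overlap. Neither *dkk2* nor any of these passed the test.

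**Figure D4:**
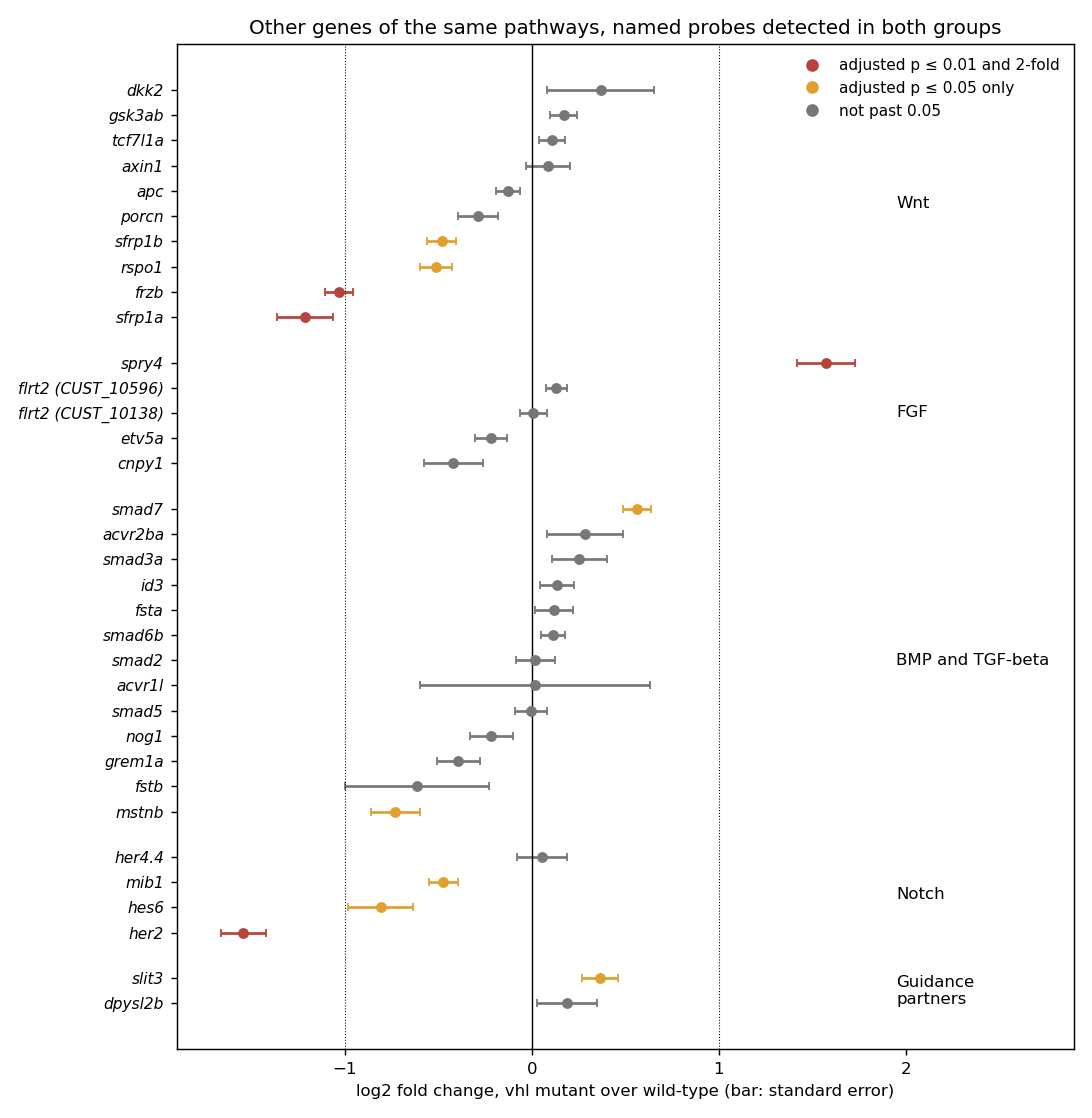
Log2 fold change (*vhl* mutant over wild-type) with its standard error for genes of the same pathways that are not members, for named probes detected in both groups. *spry4* (1.57) was called higher and *her2* (-1.54), *sfrp1a* (-1.21) and *frzb* (-1.03) were called lower.

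Counted together, 35 genes (36 probes) of 235 listed pathway symbols were measured outside the member families, and 1 probe was called higher and 3 lower. That is 11.1% of these probes, against 3.22% of all probes, and 3 of the 4 were named only through the list of changed genes. At an adjusted p of 0.05, 3 were higher and 8 lower (30.6%), against 24.4% of all probes. With RefSeq names alone, 1 of 26 was called, lower in *vhl* mutants (3.85%, against 4.97% of RefSeq-named probes), and 6 passed 0.05 (23.1%, against 30.3%). On RefSeq names alone both shares were below the background.

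Of the Hedgehog members, the ligand *shhb* was lower in *vhl* mutants. *shhb*, once called tiggy-winkle hedgehog and expressed in the ventral midline, had 9.30, 8.85 and 8.84 in *vhl* mutants, against 9.79, 9.75 and 9.71 in wild-type. This was 1.69-fold lower in *vhl* mutants (log2 -0.75, SE 0.13, limma adjusted p = 0.0109), and the result passed 0.05 whichever array was left out. *ihha*, the ligand of growing cartilage, spread widely in both groups, with 9.36 to 10.53 in *vhl* mutants, against 9.37 to 10.42 in wild-type (log2 0.02, SE 0.37). *ptchd4*, which encodes a protein with a Patched-like domain, read 7.34, 7.35 and 7.20 in *vhl* mutants, against 7.21, 7.08 and 7.18 in wild-type (log2 0.14, SE 0.07, adjusted p = 0.217). None of 21 further Hedgehog pathway symbols had a named probe, so neither the Patched receptors nor Gli targets can be set beside *shhb*.

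Of 6 guidance members, 1 was called, against 3.22% of all probes. *sema6ca*, a transmembrane semaphorin, had 10.41, 10.72 and 10.80 in *vhl* mutants, against 8.86, 9.00 and 8.78 in wild-type. It was 3.39-fold higher in *vhl* mutants (log2 1.76, SE 0.12, limma adjusted p = 9.30e-04), and the lowest mutant pool lay more than 1 log2 unit above the highest wild-type pool. The call held whichever array was left out, at log2 fold changes from 1.68 upwards, and its name came from RefSeq as well as from the list of changed genes, which uses the older name *sema6d* for it. The probe that RefSeq assigns to *sema6d* was dim, with 6.99, 7.09 and 6.90 in *vhl* mutants, against 6.95, 7.10 and 6.90 in wild-type (log2 0.01, SE 0.09). The log2 ratio of *sema6ca* to *sema6d* was 3.42 to 3.90 in *vhl* mutants, against 1.88 to 1.91 in wild-type.

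*sema3e*, a secreted semaphorin that repels vessels through plexin D1, was well above background on 0 of 3 mutant arrays and on 2 of 3 wild-type arrays. It read 6.74, 6.48 and 6.61 in *vhl* mutants, against 6.82, 6.73 and 6.66 in wild-type, and is given no fold change. The groups overlapped and the test did not pass (limma adjusted p = 0.354), so no least decrease can be given. Among ephrins, the ligand *efna2a* ranged from 10.17 to 10.32 in *vhl* mutants, against 9.93 to 10.22 in wild-type (log2 0.18, SE 0.09, adjusted p = 0.202). *efna3b*, another ligand, read 8.95, 9.01 and 9.02 in *vhl* mutants, against 8.36, 9.57 and 8.39 in wild-type. The log2 fold change was 0.22 (SE 0.32, limma adjusted p = 0.658), and wild-type replicate 3 lay above all other arrays. Without that array the value was 0.62 (adjusted p = 0.0126), and without wild-type replicate 2 or 4 it was 0.015 and 0.033 (0.981 and 0.961). Replicate 3 was singled out by its own value, so the lower p without it is no test of a change. The receptor *epha7* had 11.40, 10.61 and 11.46 in *vhl* mutants, against 11.24, 11.28 and 11.32 in wild-type (log2 -0.12, SE 0.23), with *vhl* mutant replicate 3 as the low pool.

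Of 36 partner symbols of the guidance families, 3 genes were measured, 0 were called and 1 passed an adjusted p of 0.05. Over all probes 3.22% were called and 24.4% passed 0.05. *slit3*, a secreted ligand of Robo receptors, was higher at an adjusted p of 0.05, with 11.45, 11.78 and 11.65 in *vhl* mutants, against 11.28, 11.24 and 11.26 in wild-type (log2 0.36, SE 0.10, limma adjusted p = 0.0374). It held at 0.05 with *vhl* mutant replicate 1 left out, and the adjusted p was 0.0883 to 0.114 with any of the other 5 arrays left out.

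The spread between pools was uneven. Among the 29 members well above background on every array of a group, the SD was larger in *vhl* mutants for 19 (65.5%), against 69.9% of all such probes. *vhl* mutant replicate 1 was the array farthest from the other mutant arrays for 15 of the 29 members (51.7%), against 49.2% of all such probes. In wild-type, replicate 3 was the farthest for 14 (48.3%), against 29.4% of all such probes, *notch1a*, *notch3*, *tgfbr1b* and *efna3b* among them. These 4 read higher on wild-type replicate 3 than on the other wild-type arrays. Among the 14, *bmp4*, *bmpr1ba*, *fgf20b*, *ptchd4* and *wnt5b* read lower on it, and the others higher.

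The plot of fold changes under each alternative shows which results lean on a setting. Over 18 alternatives (settings of the processing or 1 array left out), *bmp5* and *sema6ca* were called in 16 each, *notch1a* in 15, and *fgf12b* and *notch3* in 11 each. Of the 14 members past an adjusted p of 0.05, all kept their direction in every alternative except *bmp8a* and *fgf20b*, which changed sign in 1 each. Both did so under upper-quartile scaling after background correction, in which 9 of all 41031 probes were called.

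**Figure D5:**
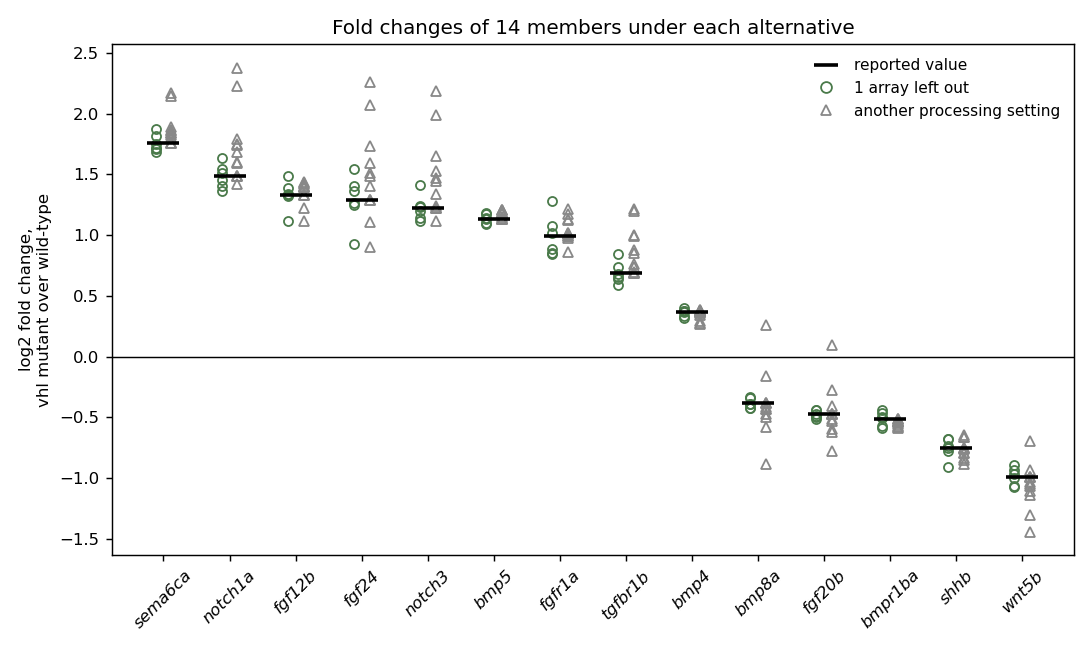
Log2 fold change (*vhl* mutant over wild-type) of the 14 members past an adjusted p of 0.05, as reported (black bars), with 1 array left out (green circles) and under other processing settings (grey triangles). The largest spread is that of *fgf24* (0.90 to 2.26), and *bmp8a* and *fgf20b* each have 1 value above 0.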

How the data were processed

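RNA of 6 pools of whole embryos was hybridised to one-colour Agilent arrays, 1 array per pool, after the authors labelled 400 ng of each RNA with Cy3. The deposited intensities used here are spot medians and local background medians, read by Feature Extraction 10.7.3.1, neither corrected nor normalised by the authors. The deposited spot flags are codes with no unit. The deposited series table, also an intensity, holds the processed signal and served as an alternative. All its columns belonged to samples of the series (0 to none).

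The steps follow the methods of the study, which name limma (3.24.10 in the submitters' processing notes). In addition, outlier spots were removed, which the methods do not mention, and p was adjusted, where they give a limit on p without saying whether it was. Background was corrected with normexp (offset 50, which they do not state), outlier-flagged spots (15 to 63 per array) were set missing, control spots were left out, and values were quantile-normalised between arrays and averaged by probe. The fit over 41031 probes used limma 3.58.1 (lmFit, eBayes; R 4.3.3) with no covariate. The offset understates changes of dim probes. Probes below background on all arrays of a group have no reliable fold change. The fit was tested on simulated data.

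Symbols came from RefSeq accessions (assembly GRCz12tu, names only, 1752 probes), then from 2 probe lists of the study, from which only symbols were taken. The fold changes and p-values in those lists, the authors' own comparison, were not used. Where both sources named a probe (248 probes), the symbols differed for 82, older names among them, and RefSeq was kept. Probe sequences were not used here, so reading of related genes by one probe was not tested.

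The members and gene lists were chosen with earlier results of these data known. Members named with values were those called, those past an adjusted p of 0.05 with groups that do not overlap, those with a symbol only in the study's lists, their relatives and the brightest of each family. *efna3b* and *fgf4* were added after their values were seen. Other pathway genes were chosen after their values were seen, from the lists.

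Replicate numbers were shared by 2 pairs of arrays (3 and 4). Alternatives were the processed signal, no background correction, an offset of 16, upper-quartile scaling, outlier spots kept, spots with a local background over 1000 removed, dim probes removed, a replicate block, another variance model, array weights, the series table, RefSeq names alone, no fold limit and each array left out. The number of arrays limits the precision.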

Additional observations from a re-analysis of the deposited data

How the results depend on the processing

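The count of called members was 5. It was 0 under upper-quartile scaling after normexp, a setting in which 9 of all 41031 probes were called, 2 with RefSeq names alone and 2 to 7 with 1 array left out, the lowest without wild-type replicate 4, and 3 without *vhl* mutant replicate 3 or wild-type replicate 2. Over all probes the called share was 0.948% to 5.29% with 1 array left out, against 3.22% with all arrays. The count at an adjusted p of 0.05 was 14, and was 1 under that scaling, 8 with RefSeq names alone and 9 to 14 with 1 array left out, the lowest without *vhl* mutant replicate 3 or wild-type replicate 2. The 4 calls among other pathway genes became 0 under that scaling and 0 to 4 with 1 array left out, 0 without wild-type replicate 3 and 2 without wild-type replicate 2 or 4. The median log2 fold change of the members, 0.03, was 0.18 with the processed signal, 0.61 under upper-quartile scaling, 0.059 without dim probes, 0.090 with the deposited series table and -0.0080 to 0.12 with 1 array left out. The median of all probes moved to 0.33 with the processed signal and to 0.71 under upper-quartile scaling. Under that scaling, *bmp8a* read 0.26 and *fgf20b* 0.10, above 0 but below that shift. Upper-quartile scaling with the 2 spots of local background over 1000 removed, a setting chosen after seeing the data, gave a member median of 0.33 and 6 called members, with an all-probe median of 0.28. There *bmp8a* read -0.16 and *fgf20b* -0.27. With the replicate number as a block, 0 members and 1 other pathway gene were called, the member median was -0.0046 and 311 probes were called over the array. The numbers are not known to pair the pools. The deviations of same-numbered arrays correlated at -0.00237 and 0.0260, and those of differently numbered arrays at -0.0474 to 0.0421. Values from 2 pairs cannot settle whether the pools were paired. Of 252 values of the 14 members past an adjusted p of 0.05, 193 kept their direction and their side of the threshold, 57 kept only their direction and 2 changed sign. The threshold here was the call for the called members and 0.05 for the others. A call gained in an alternative, as for *wnt5b* in 7 of 18, was not counted as a change. Of 646 values of other pathway genes, 550 stayed the same by these labels and 40 kept only their direction. A further 17 passed 0.05 only in the alternative, and 39 shifted without passing it. Of those past an adjusted p of 0.05, 0 changed sign. Of 338 values of the other members, 14 passed 0.05 only in the alternative and 35 shifted without passing it. Signal over background was the limit for 3 members (*fgf6a*, *fgf8a* and *wnt5a*), which no array detected, and for *sema3e* in *vhl* mutants.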
